A study of Mus musculus with 16 samples.

Results

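The transcripts of 8 chemokine receptors that guide effector and tissue-homing T cells, Ccr2, Ccr4, Ccr6, Ccr8, Ccr9, Ccr10, Cxcr4 and Cxcr6, were followed in CD4 T cells from mouse spleen. The receptors were chosen by name, and all 8 were present among the 23479 genes of the count table and among the 18430 genes tested. All mice were C57BL/6. Control mice carried no tumour (n = 5), and the other mice had received Eu-Myc lymphoma cells and were sampled at day 7 (n = 7) or day 14 (n = 4). In Eu-Myc tumours the immunoglobulin heavy-chain enhancer drives Myc in the B lineage, so the tumour is a B-cell lymphoma. CD4 T cells were purified by removing other cells with magnetic beads, which leaves the wanted cells unbound but may leave others behind. Each library came from 1 mouse according to the design text, and each held 14493764 to 27340070 reads on genes.

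Chemokine receptors are G protein-coupled receptors that act mainly through Gi proteins and steer cells along gradients of small secreted ligands. Resting T cells circulate between blood and lymphoid organs with receptors such as Ccr7, while effector, memory and regulatory cells gain receptors that lead them to inflamed tissue, skin, gut or bone marrow. In a mixed CD4 population, each receptor is therefore carried by some subsets only. A lower level in bulk RNA can come from fewer cells of a subset or from less RNA per cell, and these cannot be told apart here.

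No receptor passed the test in any comparison with edgeR's quasi-likelihood test (adjusted p below 0.05 over all tested genes). Of all tested genes, 0.0109% passed at day 7 against control, 3.13% at day 14 against control and 0.966% at day 14 against day 7, so a count of 0 among 8 receptors lies near the background. Ccr2 had the largest difference, 2.89 ± 0.71 (SE) log2 units lower at day 7 than in controls (adjusted p = 0.0777), and control levels differed widely between mice. Ccr6, Ccr8, Ccr4 and Cxcr4 averaged highest at day 14, where Cxcr4 was 0.17 ± 0.42 (SE) log2 units above controls. Ccr9 averaged lowest at day 14. Cxcr4 was the receptor with the most abundant transcript and the only one of the 8 whose day 14 and day 7 libraries did not overlap. Among all tested genes, 4.55% did not overlap between these groups, and 1.77% were higher at day 14 with no overlap.

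Some libraries stood apart. Markers of neutrophils summed to 830 and 2469 CPM (read counts scaled to library size by TMM) in control libraries 1 and 2 and to 1564 CPM in day 14 library 4, against at most 54.5 CPM in the other 13. The genes behind these sums differed. Mpo held 1226 CPM and S100a8 2.96 CPM in day 14 library 4, while S100a8 held 117 and 549 CPM in control libraries 1 and 2. Y-linked genes summed to 352 to 432 CPM in these 3 libraries and in day 7 libraries 6 and 7, and to at most 3.55 CPM in the rest. Cd3e, part of the CD3 complex, lay between 762 and 1875 CPM and Cd4 between 781 and 1802 CPM in all 16 libraries, while Cd8a reached at most 3.03 CPM and Cd8b1 at most 16.5 CPM. Regulatory T cell markers summed to 1052 to 1659 CPM at day 14, against 690 to 934 CPM in controls, and markers of gamma delta, NKT and innate-like T cells to 201 to 258 CPM, against 89.2 to 173 CPM. Both gave p = 0.0159 by an exact 2-sided permutation test, the smallest that 4 against 5 libraries allow, and no list passed after adjustment over 48 tests (smallest adjusted p = 0.0952). Most of the gamma delta, NKT and innate-like sum was 1 gene, Il2rb, with 173.5 to 226.7 CPM at day 14 and 66.95 to 136.6 CPM in controls. It was the only called gene of that list, and 2 of the 6 tested genes were lower at day 14 than in controls. Depth also differed by group, with 21610411 to 27340070 gene reads in controls, 14493764 to 24916411 at day 7 and 14731908 to 17067236 at day 14. Reads outside gene models were 47.06% to 56.67% in controls, 54.63% to 67.97% at day 7 and 54.41% to 69.78% at day 14. Log2 changes without the 3 libraries high in neutrophil markers are given below for Ccr2, and at day 7 against control for Ccr9, Cxcr4 and Cxcr6. For the other receptors they are not reported here.

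Of the 8 genes, 5 lie on chromosome 9 (GRCm38, GENCODE annotation). Ccr9 and Cxcr6 are neighbouring receptor genes there, with Ccr9 at chr9:123678439-123784330 and Cxcr6 at chr9:123806475-123811760, both on the plus strand and 22145 bases apart. The 250 bases before the RefSeq start of each (GRCm38.p6, plus strand) are shown because their transcripts varied together across libraries, as described below. Theirs was the highest Pearson r among pairs of the 8 receptors (0.728 over 16 libraries). Each had a higher r with other genes, such as Tfam for Ccr9 (0.886) and Utp11l for Cxcr6 (0.865). Fyco1, the next protein-coding gene to Ccr9, had an r of -0.027 with it. Ccr9 is shown from chr9:123766961-123767210 and Cxcr6 from chr9:123806227-123806476, written 5′ to 3′. The RefSeq start used for Ccr9 differs from the GENCODE start, so this window lies inside the Ccr9 span given above.
Ccr9 promoter: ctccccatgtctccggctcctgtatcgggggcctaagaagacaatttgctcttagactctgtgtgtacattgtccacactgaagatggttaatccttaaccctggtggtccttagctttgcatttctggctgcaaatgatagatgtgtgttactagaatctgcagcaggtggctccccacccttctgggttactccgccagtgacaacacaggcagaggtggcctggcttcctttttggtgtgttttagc
Cxcr6 promoter: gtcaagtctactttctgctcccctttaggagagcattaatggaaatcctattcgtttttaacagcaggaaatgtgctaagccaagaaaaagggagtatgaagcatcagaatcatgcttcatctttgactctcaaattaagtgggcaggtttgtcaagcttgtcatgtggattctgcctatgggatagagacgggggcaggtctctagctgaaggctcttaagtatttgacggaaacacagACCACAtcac
Capitals mark the only match to a RUNX core (TGTGGT or its complement ACCACA) in these 2 windows. RUNX factors act in T cell development, and the core is present in 14.0% of the 32851 RefSeq promoter windows of the same length. The E-box CACGTG (6.02% of windows) matched no promoter of the receptors that had one in the table. Each motif was searched on both strands, and no matches to different motifs overlapped in the 2 windows shown. The GATA core AGATAA (9.99% of windows) matched those of Ccr2, Ccr6 and Ccr8, and the TATA box TATAAA (12.4%) matched that of Cxcr4. A receptor was scored as matched if any of its windows matched, and Ccr6 had 2 windows, while the percentages are per window. These are descriptions of letters in the windows and say nothing of binding.

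Ccr2, the receptor for Ccl2 on inflammatory monocytes and on effector and memory T cells, lies at chr9:124101950-124113557 on the plus strand. Its control libraries held 60.8, 163, 15.1, 16.5 and 8.63 CPM, and day 7 libraries had a lowest, median and highest value of 2.64, 4.70 and 16.6 CPM. Day 14 libraries held 5.29, 9.78, 10.4 and 57.5 CPM. Control libraries 1 and 2 and day 14 library 4 were thus far above the others, and day 7 overlapped the controls. The highest day 7 values, 11.2 and 16.6 CPM, came from libraries 6 and 7, so in each group the libraries with high Y-linked genes held the most Ccr2. Ccr2 averaged 7.09 ± 5.18 CPM at day 7 (SD, n = 7) and 52.8 ± 65.0 CPM in controls (SD, n = 5), with edgeR's log2 change -2.89 ± 0.71 (SE). Day 14 averaged 20.7 ± 24.6 CPM (SD, n = 4), and its log2 change against control was -1.35 ± 0.82 (SE; adjusted p = 0.327). Day 14 stood 1.54 ± 0.73 (SE) log2 units above day 7 with an adjusted p of 0.333.

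The call on Ccr2 depended on the tool, the covariate and the libraries kept. DESeq2 called the day 7 difference (log2 change -2.84, adjusted p = 0.00967), as did the fit with the Y-linked level as a covariate (-1.97, adjusted p = 0.00704) and the fit without control library 5 (-3.16, adjusted p = 0.0244). Without control libraries 1 and 2 and day 14 library 4, the day 7 log2 change was -0.91 (adjusted p = 0.398) and the day 14 log2 change against control was -0.68 (adjusted p = 0.421). The Y-linked covariate also called day 14 above day 7 (log2 change 1.27, adjusted p = 0.0417), while without day 14 library 4 this difference was 0.25 (adjusted p = 0.911). Leaving out control libraries 1 and 2 alone turned the day 14 difference against control to 0.63 (adjusted p = 0.533).

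Some myeloid genes varied with Ccr2. The 13 monocyte and macrophage markers summed to 514, 1207, 112, 122 and 65.4 CPM in controls, to a lowest, median and highest 70.7, 83.2 and 134 CPM at day 7, and to 80.8, 92.6, 87.5 and 469 CPM at day 14. Of the 13, 12 were lower at day 7 than in controls, with a median log2 change of -2.14. Cd68 (-0.14), Ms4a6c (-0.37) and C1qa (-0.23) fell little, and Spic was at 0.12. Ms4a6c and Cd68 averaged 42.3 and 18.7 CPM at day 7, a large part of the sum there. Lyz2, lysozyme of myeloid cells, was at 0 in day 7 library 1 and at most 14.3 CPM at day 7. The 3 libraries with the most Ccr2 were those with the most of these markers. Csf1r, the receptor for macrophage colony-stimulating factor, had 43.1, 84.7 and 42.3 CPM in control libraries 1 and 2 and day 14 library 4, and at most 10.1 CPM in the other 13. Mpo, myeloperoxidase of neutrophil precursors, was 376 and 646 CPM in control libraries 1 and 2 and 1226 CPM in day 14 library 4, against at most 36.1 CPM elsewhere. Cell-cycle genes summed to 2196 and 4784 CPM in control libraries 1 and 2 and to 2242 CPM in day 14 library 4, and to at most 1495 CPM elsewhere. The part of myeloid or cycling cells in the Ccr2 difference was not tested. Across libraries, the genes most like Ccr2 were Anxa1, Lgals3 and Spc25, with Pearson r of 0.98, 0.98 and 0.979 (n = 16) and 0.916, 0.935 and 0.93 without the 3 libraries (n = 13). These correlations are descriptions over libraries that share depth and cell makeup.

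**Figure D1:**
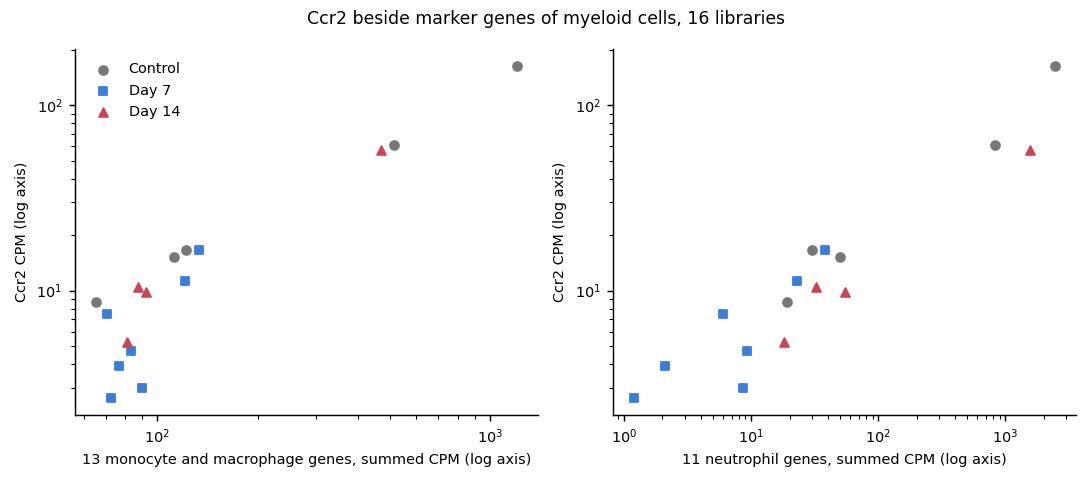
Each point is 1 of 16 libraries, with Ccr2 in CPM against the summed CPM of 13 monocyte and macrophage genes (left) or 11 neutrophil genes (right), all axes logarithmic. Control libraries 1 and 2 and day 14 library 4 lie at the upper right of both panels, with 60.8, 163 and 57.5 CPM of Ccr2.

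Ccr4 binds Ccl17 and Ccl22 and is known on skin-homing, Th2 and regulatory T cells. Its control libraries had 8.58, 7.23, 9.13, 6.47 and 6.36 CPM, and day 7 libraries had a lowest, median and highest value of 4.93, 7.22 and 10.6 CPM. Day 14 libraries had 7.13, 20.2, 11.6 and 7.50 CPM, so 2 of 4 lay above every control and every day 7 library. Its log2 change was 0.10 ± 0.26 (SE) at day 7 against control (adjusted p = 0.872), 0.62 ± 0.29 at day 14 against control (adjusted p = 0.219) and 0.52 ± 0.27 at day 14 against day 7 (adjusted p = 0.387). Without day 14 library 2 the last 2 values were 0.21 (adjusted p = 0.620) and 0.11 (adjusted p = 0.828).

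Ccr6, the receptor for Ccl20 on Th17 cells, some regulatory T cells and B cells, lies at chr17:8236043-8257141. Control libraries had 4.38, 2.12, 2.67, 2.46 and 2.84 CPM, day 7 libraries a lowest, median and highest of 1.83, 3.38 and 4.86 CPM, and day 14 libraries 6.50, 6.20, 7.17 and 2.72 CPM. Libraries 1 to 3 of day 14 lay above every control and every day 7 library, while library 4 lay among them. Ccr6 averaged 5.65 ± 1.99 CPM at day 14 (SD, n = 4) and 2.89 ± 0.87 CPM in controls (SD, n = 5), a log2 change of 0.96 ± 0.34 (SE; adjusted p = 0.115). Against day 7 the log2 change was 0.81 ± 0.31 (SE; adjusted p = 0.227), and at day 7 against control it was 0.15 ± 0.30 (adjusted p = 0.823).

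Ccr8, a receptor for Ccl1 that is known on regulatory and Th2 cells, also averaged highest at day 14. It had 4.57, 1.63, 5.90, 1.15 and 4.30 CPM in controls, a lowest, median and highest of 1.60, 2.38 and 5.10 CPM at day 7, and 5.81, 4.56, 9.14 and 8.53 CPM at day 14. The groups overlapped, with 2 of 4 day 14 libraries above every control and 3 of 4 above every day 7 library. Ccr8 averaged 7.01 ± 2.18 CPM at day 14 (SD, n = 4) and 3.19 ± 1.46 CPM at day 7 (SD, n = 7), a log2 change of 1.13 ± 0.42 (SE; adjusted p = 0.202). Against control the log2 change at day 14 was 0.99 ± 0.46 (SE; adjusted p = 0.206), and at day 7 it was -0.14 ± 0.40 (adjusted p = 0.889). Foxp3, which defines regulatory T cells, rose to 370 ± 139 CPM at day 14 (SD, n = 4), against 196 ± 33.2 CPM in controls (SD, n = 5), with edgeR's log2 change 0.92 ± 0.19 (SE; adjusted p = 0.0194).

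Ccr9 binds Ccl25 and leads T cells to the small intestine, and thymocytes carry it too. In the annotation its exons share 1932 bases with AC165425.1, 269 with Gm17200 and 22 with Slc6a20a, so some of its reads are uncertain. Its control libraries had 13.2, 10.8, 18.9, 17.5 and 21.8 CPM, day 7 libraries a lowest, median and highest of 8.72, 13.9 and 17.9 CPM, and day 14 libraries 6.04, 16.8, 9.76 and 5.74 CPM. Libraries 1, 3 and 4 of day 14 lay below every control. Ccr9 averaged 9.59 ± 5.16 CPM at day 14 (SD, n = 4) and 16.4 ± 4.42 CPM in controls (SD, n = 5), a log2 change of -0.78 ± 0.31 (SE; adjusted p = 0.150). Without day 14 library 2 the log2 change was -1.20 and passed the test (adjusted p = 0.0222). That library had the lowest share of reads outside gene models at day 14, 54.41%, against 69.78%, 66.26% and 62.3% in libraries 1, 3 and 4. The part of this share in the Ccr9 difference was not tested. The day 7 log2 change against control was -0.34 ± 0.26 (SE; adjusted p = 0.504), and the day 14 change against day 7 was -0.44 ± 0.29 (adjusted p = 0.515). Without control libraries 1 and 2 and day 14 library 4, the day 7 log2 change against control was -0.59 (adjusted p = 0.372).

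Cxcr6, the receptor for Cxcl16 on tissue-resident, Th1 and NKT cells, had control levels of 9.36, 4.61, 14.3, 15.4 and 15.9 CPM. Its day 7 libraries had a lowest, median and highest of 3.90, 10.9 and 12.5 CPM, and day 14 libraries had 3.45, 18.5, 9.40 and 7.32 CPM. All groups overlapped. The log2 change over all 16 libraries was -0.34 ± 0.37 (SE) at day 7 against control (adjusted p = 0.649), -0.30 ± 0.43 at day 14 against control (adjusted p = 0.677) and 0.04 ± 0.40 at day 14 against day 7 (adjusted p = 0.970). The span of Cxcr6 lies inside that of Fyco1 on the other strand, with 0 shared exon bases, and the r between them across 16 libraries was 0.0541.

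Ccr10, the receptor for Ccl27 and Ccl28 on skin-homing T cells and on antibody-secreting cells, lies at chr11:101172997-101175443 and was barely detected. Control libraries held 10, 12, 22, 13 and 2 reads, day 7 libraries 1 to 14 reads, and day 14 libraries 12, 6, 11 and 0 reads. The count of 0 allows up to 0.2 CPM, a limit that covers counting error only. At this depth a difference was not detectable, with log2 changes of -0.66 ± 0.90 at day 7 against control, -0.31 ± 1.04 at day 14 against control and 0.35 ± 0.97 (SE) at day 14 against day 7.

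Cxcr4 binds Cxcl12, which holds cells in bone marrow and in germinal centre dark zones, and lies at chr1:128588199-128592293. Control libraries split, with 173, 141 and 204 CPM in libraries 1 to 3 and 52.5 and 49.9 CPM in libraries 4 and 5. Day 7 libraries had a lowest, median and highest of 26.5, 63.1 and 99.2 CPM, and day 14 libraries had 113, 120, 119 and 205 CPM. Every day 14 library was above every day 7 library. Of all tested genes, 1.77% were higher at day 14 with no overlap, and 4.55% did not overlap in either direction. Cxcr4 averaged 139 ± 44.2 CPM at day 14 (SD, n = 4) and 65.2 ± 30.2 CPM at day 7 (SD, n = 7), a log2 change of 1.09 ± 0.39 (SE; adjusted p = 0.177). It averaged 124 ± 70.2 CPM in controls (SD, n = 5), with a log2 change of -0.93 ± 0.36 (SE; adjusted p = 0.147) for day 7 and 0.17 ± 0.42 (adjusted p = 0.819) for day 14. Day 14 library 4, which was high in myeloid markers, was the highest of its group. Without this library and control libraries 1 and 2, the day 7 log2 change against control was -0.69 (adjusted p = 0.458).

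**Figure D2:**
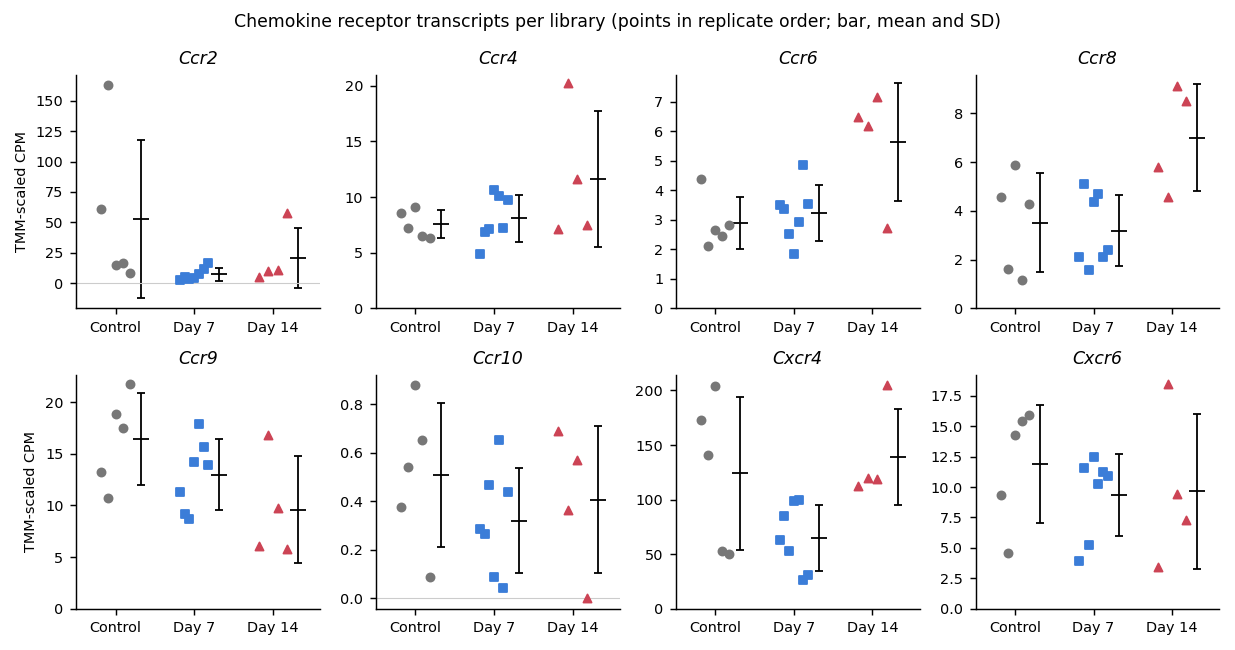
TMM-scaled CPM of each receptor in every library, as points in replicate order for control, day 7 and day 14, with the mean and SD beside them. Ccr2 is highest in control libraries 1 and 2, the Cxcr4 controls split into 3 high and 2 low libraries, and 3 of 4 day 14 libraries of Ccr6 lie above all others.

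Counts over the 8 receptors were set against all tested genes. At day 7 against control, 0 of 8 were called and 2 had an unadjusted p below 0.05, both lower (Ccr2 and Cxcr4). Over all tested genes, edgeR called 0.0109%, and 21.1% had an unadjusted p below 0.05. The libraries of the groups overlapped for all 8 receptors in both comparisons with control, while 1.97% of tested genes at day 7 and 8.08% at day 14 did not overlap. At day 14 against control, 0 of 8 were called, and 4 had an unadjusted p below 0.05, with Ccr4, Ccr6 and Ccr8 higher and Ccr9 lower. The shares over all genes were 3.13% and 22.4%. At day 14 against day 7, again 0 of 8 were called, and Ccr2, Ccr6, Ccr8 and Cxcr4 had an unadjusted p below 0.05, all higher. The shares over all genes were 0.966% and 14.8%. DESeq2 called 1, 0 and 0 receptors in the 3 comparisons in this order, and limma-voom called 0 in each. The median log2 change over the 8 receptors was -0.34, -0.07 and 0.66 in the same order, against 0.07, 0.12 and 0.12 over all tested genes. At day 14 against day 7 it was 0.82 over the other chemokine receptors and 0.68 over the ligands, lists described below. It was -0.20 for receptor signalling and migration, -0.18 for desensitisation and RGS, and -0.45 for egress and retention. The 3 comparisons share groups of mice, so their values are not independent.

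**Figure D3:**
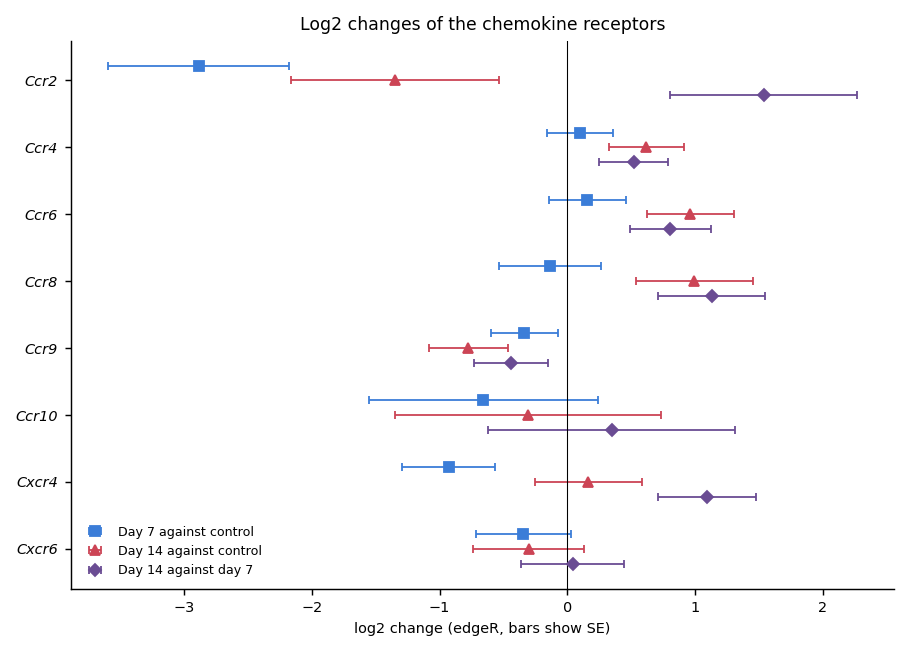
Log2 change of each receptor by edgeR with its SE, for day 7 against control, day 14 against control and day 14 against day 7. The widest bars belong to Ccr10 and Ccr2, and no change passed the adjusted threshold.

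Levels of different receptors were compared as CPM per kilobase of the principal transcript. Cxcr4 led in every group, with 68.7 ± 38.9 in controls, 36.1 ± 16.7 at day 7 and 77.1 ± 24.5 at day 14 (SD). Ccr10 was last with 0.293, 0.185 and 0.236, clear of the receptor above it in each group. In controls the order between them was Ccr2, Cxcr6, Ccr9, Ccr8, Ccr4 and Ccr6, with levels of 9.22, 6.28, 3.16, 2.99, 2.69 and 1.65, and each overlapped its neighbour. At day 7 it was Cxcr6, Ccr4, Ccr8, Ccr9, Ccr6 and Ccr2, with 4.94, 2.88, 2.72, 2.50, 1.84 and 1.24. At day 14 it was Ccr8, Cxcr6, Ccr4, Ccr2, Ccr6 and Ccr9, with 5.96, 5.09, 4.14, 3.62, 3.22 and 1.85. Inside these lists every neighbour overlapped, so their order is not beyond the spread. Cxcr4 was clear of the next receptor at day 7 and day 14, and in controls it overlapped Ccr2.

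The transcripts were also described beside the lineage factors of the subsets that carry the receptors. Over 16 libraries, Cxcr6 and Tbx21, the Th1 factor, had a Pearson r of 0.717 and a Spearman rho of 0.638, and 0.826 after group means were subtracted. Ccr8 and Foxp3 had an r of 0.642, and 0.351 after subtraction. Ccr4 and Gata3, the Th2 factor, had an r of 0.0763, and 0.414 after subtraction. Among the receptors themselves, Ccr9 and Cxcr6 had an r of 0.728 and a rho of 0.747, and 0.773 after subtraction. Ccr8 and Cxcr4 had an r of 0.633. These libraries share depth and cell makeup, and no p is attached to these values.

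**Figure D4:**
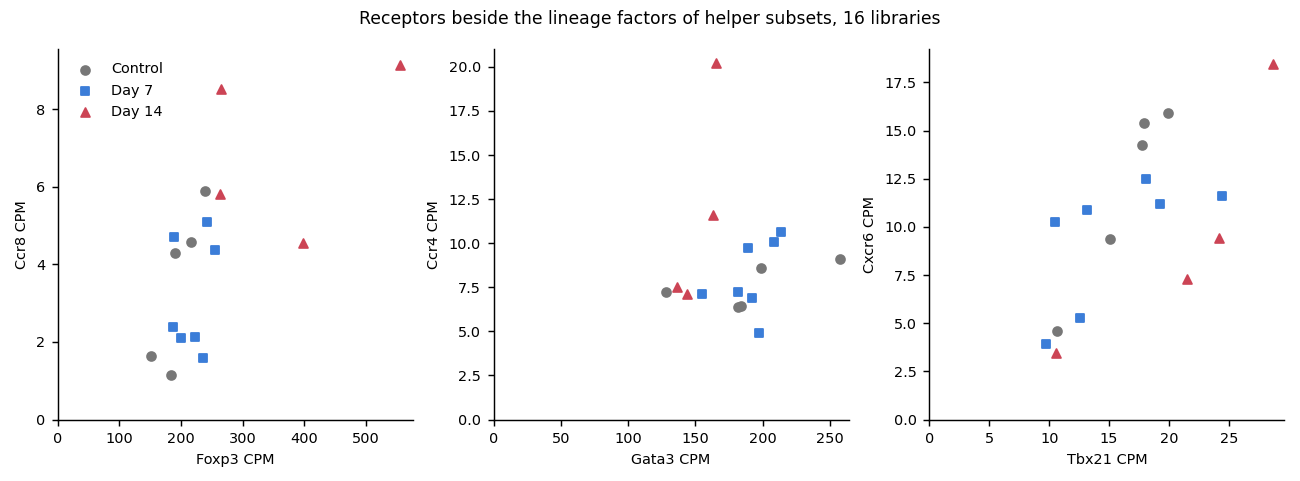
CPM of Ccr8, Ccr4 and Cxcr6 against Foxp3, Gata3 and Tbx21, from left to right, in 16 libraries, coloured by group. The r, taken on log2(CPM + 1) and not on the plotted CPM, is 0.642, 0.0763 and 0.717 for the 3 pairs in this order. After group means were subtracted, these were 0.351, 0.414 and 0.826.

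Genes most like the other receptors were found by the same rule among 9779 genes. Cxcr4 was most like Icos, a costimulatory receptor of activated and follicular T cells, with r = 0.915 and rho = 0.900 over 16 libraries and r = 0.903 without the 3 libraries above. Its next were Bhlhe40 (r = 0.878) and Cxcl10 (r = 0.830). Icos had 104, 83.3 and 114 CPM in control libraries 1 to 3, and 49.2 and 53.9 CPM in libraries 4 and 5, the same split as Cxcr4. Ccr9 was most like Tfam (r = 0.886), Myl6 (r = 0.884) and Pole4 (r = 0.878). Cxcr6 was most like Utp11l (r = 0.865), Sar1b (r = 0.852) and Ppp4r2 (r = 0.813). Ccr4 was most like 4933412E12Rik (r = 0.807), Gadd45g (r = 0.778) and Cacnb3 (r = 0.726, with a rho of only 0.303).

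**Figure D5:**
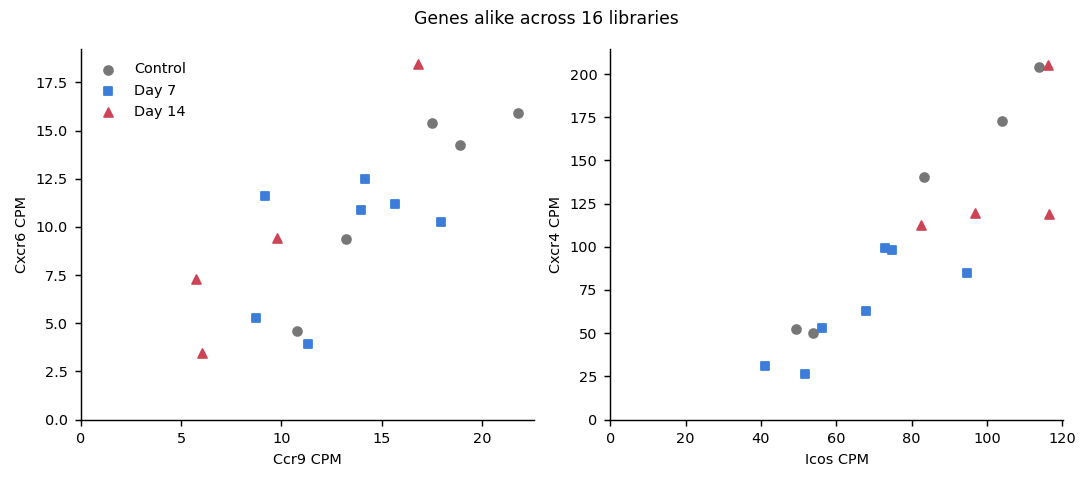
CPM of Cxcr6 against Ccr9 (left) and of Cxcr4 against Icos (right) in 16 libraries, with linear axes. Cxcr4 and Icos separate control libraries 1 to 3 from 4 and 5. Their r, taken on log2(CPM + 1) and not on the plotted CPM, was 0.915.

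Other genes of the pathway were counted from fixed lists. Of 14 tested other chemokine receptors, 3 passed at day 14 against control and 0 in the other comparisons. With only the 2 groups compared, 4 genes of the whole table passed at day 14 against control. Most genes named as called there thus did not pass in that fit. Cxcr5, which leads cells to B-cell follicles, rose to 58.9 ± 18.5 CPM at day 14, against 20.4 ± 6.30 CPM in controls (SD, n = 4 and 5; edgeR's log2 change 1.53 ± 0.31 SE, adjusted p = 0.0187). Cxcr3, a receptor of Th1 cells, rose to 30.8 ± 9.55 CPM, against 12.9 ± 4.85 CPM (log2 change 1.25 ± 0.28, adjusted p = 0.0275). Ccr7, which brings naive cells into lymphoid organs, fell to 212 ± 49.5 CPM, against 427 ± 163 CPM in the control mice, with a log2 change of -1.01 ± 0.25 (adjusted p = 0.0418). These 3 genes had no overlap between the libraries of the 2 groups. Among all tested genes, 3.13% passed at day 14 against control and 8.08% had no overlap.

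Ligands of the receptors were low in these cells, and 0 of 9 tested passed in any comparison. Ccl25, the ligand of Ccr9, was the most abundant, and its group means were 6.61 ± 1.56 CPM (control), 6.99 ± 2.27 (day 7) and 5.85 ± 0.24 (day 14), with the SD. Ccl2 reached 7.82 CPM in a control library, but at most 0.73 CPM at day 14 and 0.51 CPM at day 7. Of 22 genes of receptor signalling and migration, Rap1b and Gnai3 fell at day 14 against control, where 3.13% of all tested genes passed. Rap1b, a small GTPase of integrin activation, fell to 243 ± 33.0 CPM at day 14, against 384 ± 45.6 CPM in mice without tumour, with a log2 change of -0.66 ± 0.11 (SE; adjusted p = 0.00817). It also fell against day 7 (log2 change -0.51 ± 0.11 SE, adjusted p = 0.0307). Gnai3, a Gi subunit, fell by 0.38 ± 0.10 on the log2 scale (adjusted p = 0.0484). Of 14 genes of receptor desensitisation and RGS proteins, which end the signal, 0 passed in any comparison. Of 9 tested egress and retention receptors, 0 passed, although S1pr1, the receptor for exit into lymph, had 329 ± 49.6 CPM at day 14 and 498 ± 136 CPM in controls (SD), with an adjusted p of 0.0512.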

How the data were processed

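Spleen CD4 T cells gave the RNA, of which 100 ng went into each NuGEN library, per the labels' protocols. Demultiplexing, trimming and counting tools appear in the submitters' processing notes as bcl2fastq 2.20.0.422, cutadapt 1.8.1 and HTSeq 0.6.1, with mm10 as the build. The aligner, annotation and strand setting are not given in the sources used here, so reads of overlapping or antisense genes and of paralogs are uncertain. The authors deposited raw read counts per gene for 23479 genes and 16 libraries. A further 5 lines name no gene and were dropped, and 1 of these, for reads outside gene models, took up 47.06% to 69.78%.

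The test was edgeR's quasi-likelihood test (edgeR 4.0.16, limma 3.58.1 and R 4.3.3) after TMM scaling and filterByExpr, fitted over all 3 groups, with Benjamini-Hochberg adjustment over 18430 genes and a threshold of 0.05. An SE was taken as the size of the log2 change over the square root of F. CPM are TMM-scaled, and correlations used log2(CPM + 1). Alternatives were RLE and library totals as scaling, no or a stricter filter, limma-voom, DESeq2 1.42.0, a replicate block, a Y-linked covariate, only the 2 groups compared, and fits without control libraries 1 and 2 or without each library in turn. A fit without these 2 and day 14 library 4 was chosen after the data were seen. The model was tested on simulated data.

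The receptors, gene lists and rules were chosen with earlier results of these data known. Besides the receptors, 22 lists held 226 genes, of which 221 were found, 9 by an older symbol. Named genes are the receptors, up to 3 called genes per pathway list or its most abundant one, the genes at 5 CPM or more with the highest correlation, overlapping genes and a fixed panel, some of which are not reported here. Genes outside this rule, such as single markers of other cell types, were chosen after their values were seen. Promoters came from RefSeq (GRCm38.p6), with 8 windows for 7 of 8 receptors, and positions and lengths from GENCODE (GRCm38, which mm10 names). Each library was taken as 1 mouse. Figures were made with Python 3.11.15 and Matplotlib 3.10.9.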

Additional observations from a re-analysis of the deposited data

Results flagged for a closer look

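In groups of 4 to 10 libraries, a library whose gap to the next exceeds Dixon's limit was marked, for 24 groups of the 8 receptors, and chance marks about 5% of groups. Ccr2 in day 14 library 4 was marked with 57.45 CPM, against 5.29 to 10.4 CPM in the other day 14 libraries. Cxcr4 in the same library was marked with 205.4 CPM, against 113 to 120 CPM in the others. That library also had the most neutrophil markers (1564 CPM summed) and monocyte and macrophage markers (469 CPM summed) of its group, and Y-linked genes at 352 CPM. Of its neutrophil sum, 1226 CPM was Mpo. Elane and Prtn3 reached 146 and 176 CPM at day 14, and each other neutrophil marker at most 7.56 CPM. Without it, the day 14 log2 change of Ccr2 against day 7 was 0.25 (adjusted p = 0.911). The part of this library's other cells in the Cxcr4 value was not tested.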

How the results depend on the processing

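Of 516 alternative log2 changes of the receptors, 497 kept their direction and side of the threshold, 14 changed sign and 5 passed the threshold. The sign changes, all of them without a call, were as follows. Ccr6 (-0.0397) and Ccr8 (0.13) at day 7 against control changed under the replicate block, and Ccr2 at day 14 against control (0.63) without control libraries 1 and 2. Cxcr6 at day 14 against day 7 changed with limma-voom (-0.18) and the Y-linked covariate (-0.0065), and lay between -0.48 and 0.30 when single libraries were left out. When single libraries were left out, Ccr8 at day 7 lay between -0.35 and 0.16, Ccr10 and Cxcr4 at day 14 against control between -0.636 and 0.0929 and between -0.0885 and 0.504, and Ccr10 at day 14 against day 7 between -0.0162 and 0.751. The cause was not tested.

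Calls among the 8 receptors were 0 in the main model and 1 at day 7 against control with DESeq2 and with the Y-linked covariate, and 1 at day 14 against day 7 with the covariate, each time Ccr2. When single libraries were left out, 0 to 1 were called at day 7 against control, 0 to 1 at day 14 against control (Ccr9) and 0 at day 14 against day 7.

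Counts of all called genes moved more. At day 7 against control, 2 were called, against 1603 with DESeq2, 333 with the Y-linked covariate, 4 with only the 2 groups, 0 without control libraries 1 and 2, and 0 without these and day 14 library 4. At day 14 against control, 577 were called, against 381 with no filter, 1003 with limma-voom, 1551 with DESeq2, 942 without control libraries 1 and 2 and 4 with only the 2 groups. At day 14 against day 7, 178 were called, against 715 with DESeq2, 838 without control libraries 1 and 2, 966 with the covariate and 712 with only the 2 groups. Leaving out single libraries gave 0 to 1455, 65 to 1458 and 25 to 377 in these 3 comparisons.

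With the replicate block, 35, 46 and 28 genes were called in the 3 comparisons. Same-numbered libraries did not deviate together (r between -0.343 and 0.295), and they come from different mice, so the numbers do not pair them. In no comparison did every library correlate best with its own number (0 of 5, 0 of 4 and 2 of 4).

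With library totals in place of TMM, calls at day 14 against control split into 699 higher and 100 lower, against 246 and 331, and those at day 14 against day 7 into 150 and 41, against 76 and 102. The median log2 change of all genes moved to 0.32 and 0.29, against 0.12 in both. Marker lists as a mean of log2(CPM + 1) changed sign for Th2 markers at day 14 against control (0.16) and against day 7 (0.36), CD8 T cell markers at day 7 against control (-0.27), and plasma cell (0.24) and dendritic cell markers (0.22) at day 14 against day 7. With 4 to 7 mice per group, differences of the size of these standard errors were not detectable, and Ccr10, with at most 22 reads in a library, was limited by depth.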

Other observations

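Among genes that the naming rule did not cover because the receptor lay under 5 CPM, and that were chosen after their values were seen, Ccr8 was most like Tnfrsf18 (GITR, a receptor of regulatory T cells), with r = 0.875 and rho = 0.850 over 16 libraries. Tox2 (r = 0.828) and Cish (r = 0.824) came next. Tnfrsf18 rose to 65.3 ± 10.2 CPM at day 14, against 41.7 ± 4.37 CPM at day 7 (SD, n = 4 and 7; edgeR's log2 change 0.65 ± 0.14 SE, adjusted p = 0.0394). Cish, an inhibitor of cytokine signalling, rose at day 14 against day 7 by 0.88 ± 0.16 on the log2 scale (adjusted p = 0.0154). Ccr6 was most like Abca1, a cholesterol exporter, with r = 0.838.

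Of 11 regulatory T cell markers, 4 passed at day 14 against control, all higher (Tnfrsf4, Foxp3, Ikzf2 and Itgae). At day 14 against day 7, 4 passed, all higher (Tnfrsf4, Tnfrsf18, Foxp3 and Ikzf2). Over all tested genes, 3.13% and 0.966% passed in these comparisons. The summed list passed in neither (permutation test, adjusted p = 0.0952 in both). With only the 2 groups compared, 4 genes of the whole table passed at day 14 against control. Tnfrsf4, the costimulatory receptor OX40, had 95.1 ± 12.95 CPM at day 14 and 45.4 ± 14.0 CPM in controls (SD, n = 4 and 5; log2 change 1.07 ± 0.17 SE, adjusted p = 0.00812).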
